A study of Homo sapiens with 43 samples.

Results

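CDK7, CDK12, CDK13, CCNK, SUPT5H, SUPT4H1, NELFA, NELFB, NELFCD and NELFE encode the kinases that act on RNA polymerase II beside CDK9 and the factors that hold the polymerase near gene starts. These 10 genes were chosen by name, not by a cut on their values, from the 20037 protein-coding genes of the annotation. Earlier results of these data were known when they were chosen. CDK7 is the kinase of the general factor TFIIH and phosphorylates the polymerase tail (the C-terminal domain) at serine 5 near gene starts. CDK12 and CDK13 pair with cyclin K, the product of CCNK, and phosphorylate the tail during elongation. SPT5 (SUPT5H) and SPT4 (SUPT4H1) form DSIF, and the products of NELFA, NELFB, NELFCD and NELFE form NELF. DSIF and NELF pause the polymerase, and CDK9 in P-TEFb releases it by phosphorylating SPT5, NELF and the tail. Serine 5 phosphorylation (Ser5P) marks initiating polymerase, and serine 2 phosphorylation (Ser2P) marks elongating polymerase and is usually richest towards gene ends.

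The study mapped CDK9 and polymerase by ChIP-seq in SUDHL5 and KARPAS422, established human lines of diffuse large B-cell lymphoma. Cells were given 30 nM CDK-TCIP1, a bivalent small molecule that joins a ligand of CDK9 to a ligand of the repressor BCL6, or DMSO alone, with 0.1% DMSO in every culture. CDK9 was mapped after 2 h in SUDHL5 with the antibodies ab239364 and CST2316S and in KARPAS422 with CST2316S, with 2 treated and 2 DMSO peak lists in each set. Ser2P and Ser5P were mapped in SUDHL5 after 2 h and 4 h of CDK-TCIP1, with 2 lists a group, and total polymerase (Pol II) with 3 lists a group. The DMSO lists of Ser2P, Ser5P and Pol II were from 4 h alone, so both polymerase time points were set against the same DMSO lists. The 2 h polymerase lists thus differ from DMSO in time as well. No genetic change separates the groups, and each line is 1 line without parallel clones in the labels.

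A gene had a peak in a list when a peak overlapped the stretch within 1 kb of either of its ends, and for Ser2P the gene with 2 kb on each side. Cover is the percentage of that window lying under peaks. For Ser2P the window grows with the gene, so the same covered bases give a lower percentage at a longer gene. A gene counted as gained where all treated lists held a peak and the DMSO lists held none, and as lost in the opposite case. With 2 lists against 2, no exact test can give a two-sided p below 0.333, and with 3 against 3 none below 0.1. Treated and DMSO cover that did not overlap is therefore a statement of order, not of significance. Peak presence and cover also move with list length. With ab239364 the DMSO lists held 915 to 3509 peaks and the treated lists 9262 to 11148, and with CST2316S in SUDHL5 1264 to 1611 against 9762 to 10006. In KARPAS422 they held 6689 to 7804 against 10298 to 14554. Ser2P lists held 16594 to 28955 peaks in DMSO, 6519 to 16171 at 2 h and 13657 to 16324 at 4 h, and 1 list stood apart, 2 h replicate 1 with 6519. Ser5P lists held 10819 to 17785 and Pol II lists 138 to 4001. The part of list length in the results below was not tested beyond taking equal numbers of the best peaks from every list. That number was the length of the shortest list of each comparison, so the shortest list kept all of its peaks. The B-cell genes CD79A, CD79B, MS4A1 and PAX5 had a Ser5P peak in 6 of 6 lists, while CD4, ALB, INS and MYH6 had 0. The T-cell gene CD3E also had a peak in 6 of 6.

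Peaks at these genes lay mostly at their starts, so the sequences before the starts of 4 of them are shown first. They include the least and the most often occupied of the 10 genes (CDK7 and CDK13). CCNK had all its CDK9 summits beside its start, and SUPT4H1 had the largest difference in Ser2P cover as a percentage of the window. Each is the 250 bases before the outermost annotated start in RefSeq, GRCh38.p14, read 5′ to 3′ in the direction of transcription. CDK7 and CDK13 lie on the plus strand (chr5:69234545-69234794 and chr7:39950006-39950255), as does CCNK (chr14:99481159-99481408), and SUPT4H1 lies on the minus strand (chr17:58352202-58352451). Capitals mark the motif letters found.
CDK7: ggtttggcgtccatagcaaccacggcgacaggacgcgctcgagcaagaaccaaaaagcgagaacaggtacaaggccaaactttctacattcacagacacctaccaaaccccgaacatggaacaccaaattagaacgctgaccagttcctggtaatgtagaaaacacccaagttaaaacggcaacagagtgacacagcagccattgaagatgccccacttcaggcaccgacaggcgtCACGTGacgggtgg
CDK13: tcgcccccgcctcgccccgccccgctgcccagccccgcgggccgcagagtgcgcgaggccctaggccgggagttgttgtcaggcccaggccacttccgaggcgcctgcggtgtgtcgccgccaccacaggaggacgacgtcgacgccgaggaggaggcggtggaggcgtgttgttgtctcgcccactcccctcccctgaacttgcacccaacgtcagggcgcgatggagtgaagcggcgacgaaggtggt
CCNK: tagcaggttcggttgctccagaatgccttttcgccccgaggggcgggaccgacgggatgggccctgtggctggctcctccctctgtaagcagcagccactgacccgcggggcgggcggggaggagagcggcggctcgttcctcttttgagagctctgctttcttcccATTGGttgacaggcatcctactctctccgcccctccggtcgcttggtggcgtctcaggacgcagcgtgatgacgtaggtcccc
SUPT4H1: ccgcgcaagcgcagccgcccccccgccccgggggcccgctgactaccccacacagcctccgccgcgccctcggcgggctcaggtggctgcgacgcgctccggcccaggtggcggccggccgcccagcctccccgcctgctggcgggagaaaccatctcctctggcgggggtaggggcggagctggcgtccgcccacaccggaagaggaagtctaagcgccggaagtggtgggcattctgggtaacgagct

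All 10 genes matched the promoter table, and 4 motifs were searched on both strands over 300 bases around the start (250 before and 50 after). CACGTG, an E-box, was found at CDK7, where it begins 14 bases before the start, and among the 10 genes at no other. CCAAT was found at CCNK on the opposite strand, 83 bases before the start, where it reads ATTGG. TTCNNNGAA, the core of sites bound by STAT factors and BCL6, and TATAAA were found at 0 of the 10. Over 22199 promoters of protein-coding genes, 8.34% held CACGTG, 34.7% CCAAT, 6.79% TTCNNNGAA and 9.47% TATAAA. GC content of the 250 bases ran from 48.8% at CDK12 to 78.4% at NELFB.

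The genes differed in how often they were occupied. CDK13 had a peak in 26 of the 33 lists, SUPT4H1 in 22, SUPT5H in 21, CDK12 and NELFA in 19, CCNK in 16 and NELFB in 14. NELFCD and NELFE had one in 11 and CDK7 in 8. For CDK9, 41 of the 120 pairs of gene and list had a peak, 39 of them at the gene start and 3 at the gene end. For Pol II, 19 of 90 pairs had one, all at the start. For Ser5P it was 53 of 60 pairs, 50 at the start and 19 at the end. The heat map of cover by gene and list shows these differences.

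**Figure D1:**
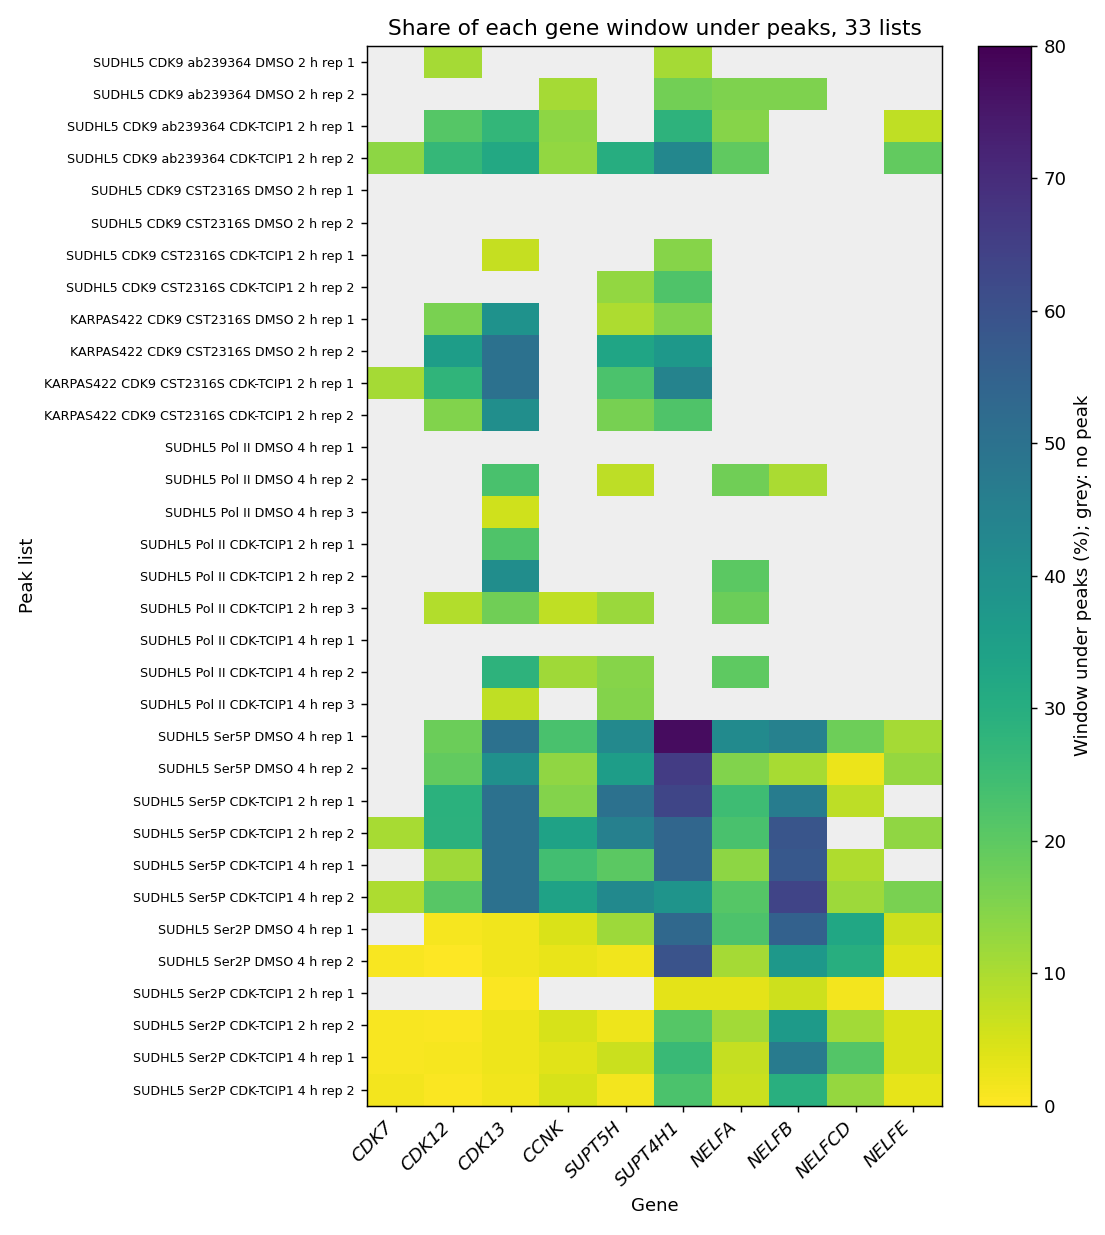
Percentage of each gene window under peaks (colour) for the 10 genes (columns) in the 33 peak lists (rows, by line, target, antibody, treatment, time and replicate); grey marks no peak. CDK13 is covered in 26 lists and CDK7 in 8, and NELFCD has no CDK9 or Pol II peak.

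CDK13 was the most constant of the kinases, and its Ser5P, Ser2P and Pol II summits lay upstream of its annotated start. The Ser5P peaks themselves ran across the start. The gene spans 149 kb of chromosome 7 (hg38 39950256 to 40099580). All 6 Ser5P lists had a peak there with a summit 0.894 to 0.931 kb before the start, and it ranked within the best 2.51% to 6.14% of each list by q. These summits fall inside CDK13-DT, a noncoding gene on the opposite strand whose nearest end lies 0.837 kb before the CDK13 start. Signal from CDK13 and CDK13-DT cannot be told apart here. Ser5P cover was 50.0% and 40.0% in DMSO, 50.0% in both lists at 2 h and 50.0% in both at 4 h, which means that the start side of the window was filled. The authors' fold for this peak was 11.9 and 11.2 in DMSO, 15.7 and 24.6 at 2 h, and 12.6 and 15.6 at 4 h. Folds are not scaled between lists, so they describe each peak within its list only. Ser2P summits lay 0.841 to 0.978 kb before the start, and Ser2P covered 1.67% to 1.85% of the gene window in DMSO, 0.376% and 2.06% at 2 h, and 1.93% and 1.84% at 4 h. In all 6 lists no Ser2P peak lay beyond the midpoint of the gene.

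Total Pol II at CDK13 was higher at 2 h in every pair of equal replicate number. Cover was 0%, 23% and 5.65% in DMSO replicates 1, 2 and 3, and 22%, 40.9% and 17.4% at 2 h. At 4 h it was 0%, 28.3% and 7.65%. That order held in 3 of 3 pairs, although the groups overlapped. Each 2 h list was also longer than the DMSO list of its number (1214, 4001 and 2386 peaks against 710, 3231 and 2028). The part of list length in this order was not tested. The replicate 1 pair rests on 1 weak peak at 2 h, with -log10 q of 1.92 and 95.7% of the way down its list. Its summit lay 0.496 kb before the start, against 0.895 to 0.940 kb in the other Pol II lists with a peak. The mean was 9.55% ± 12 in DMSO and 26.8% ± 12 at 2 h (SD, n = 3 each; exact permutation test, two-sided, p = 0.3). With the replicate number as a block the exact p was 0.25, the smallest that 3 pairs can give. Of all genes with a Pol II peak in these lists, 7.83% were higher in every pair and 0.855% lower in every pair. At 4 h CDK13 was higher than DMSO in 2 of 3 pairs. Both replicate 1 lists had no peak at CDK13 and were the shortest of their groups, with 710 peaks in DMSO and 138 at 4 h.

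CDK9 at CDK13 depended on the line and the antibody. With ab239364 in SUDHL5 cover was 0% in both DMSO lists and 26.9% and 31.6% in the treated lists, so the gene was gained. The peak in treated replicate 1 had -log10 q of 3.96, against 11.04 in treated replicate 2, and stood 76.4% of the way down its list. The summits lay 0.19 kb before the start in replicate 1 and 0.89 kb before it in replicate 2. The gain did not remain with -log10 q of at least 5 or with equal numbers of the best peaks. The latter cut kept 915 peaks a list, and the treated peaks ranked 7073 and 4793, so their removal was set by the cut. With CST2316S in SUDHL5 cover was 0% in both DMSO lists, 6.95% in treated replicate 1 and 0% in treated replicate 2. In KARPAS422 the same antibody gave 39.2% and 50.0% in DMSO and 50.0% and 40.4% with CDK-TCIP1. The KARPAS422 groups overlapped, and CDK9 was at the gene without the compound there.

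CDK12, on chromosome 17 (hg38 39461486 to 39567559, 106 kb), had all its start summits between -0.005 and 0.223 kb from its start. Ser5P covered 18.0% and 19.3% of the window in DMSO, 28.8% and 28.5% at 2 h, and 11.3% and 20.7% at 4 h. The 2 h lists were both higher than DMSO, through a single start peak of 1.15 and 1.14 kb against 0.720 and 0.771 kb, and the 4 h lists overlapped DMSO. CDK9 with ab239364 covered 10.7% and 0% in DMSO and 21.1% and 26.7% with the compound, so the groups did not overlap. With CST2316S CDK12 had no peak in the 4 SUDHL5 lists, whereas in KARPAS422 it had one in all 4, covering 16.1% and 35.6% in DMSO and 27.7% and 15.1% with the compound. Ser2P was present in 5 of 6 lists but covered at most 1.06% of the gene window. Pol II had a peak in 1 of 9 lists, at 2 h in replicate 3.

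CCNK, on chromosome 14 (hg38 99481409 to 99512440), shares its start window with SETD3, transcribed from the opposite strand, and its end window with CCDC85C. CDK9 was seen at CCNK with ab239364 alone, and the summit was steady: 0.031 kb after the start in DMSO replicate 2, and 0.012 and 0.037 kb after it in the treated lists. Cover was 0% and 10.9% in DMSO and 13.5% and 12.9% with the compound. The groups did not overlap, although DMSO replicate 2 alone was close to the treated lists in cover and in its place in the list (best 10.8%, against 11.0% and 8.67%). The 8 CST2316S lists of both lines had no peak at CCNK. Ser5P covered 22.8% and 13.4% in DMSO, 14.8% and 33.8% at 2 h, and 24.2% and 33.8% at 4 h. The 4 h lists lay above DMSO and the 2 h lists overlapped it.

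CDK7, on chromosome 5 (hg38 69234795 to 69277430), was the least occupied, and its end window lies within CCDC125. Each of its 8 peaks was a single one at the start. Ser5P had a peak in replicate 2 at 2 h and at 4 h, covering 10.3% and 9.92%, and in no DMSO list. Ser2P covered 0% and 0.931% of the gene window in DMSO, 0% and 0.875% at 2 h, and 0.763% and 1.33% at 4 h. CDK9 was seen in treated replicate 2 with ab239364 (13.5%) and in treated replicate 1 in KARPAS422 (10.8%). The CDK9 peaks ranked low, at 84.5% and 90.3% of the way down their lists by q. CDK7 was gained in no comparison and had no Pol II peak.

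**Figure D2:**
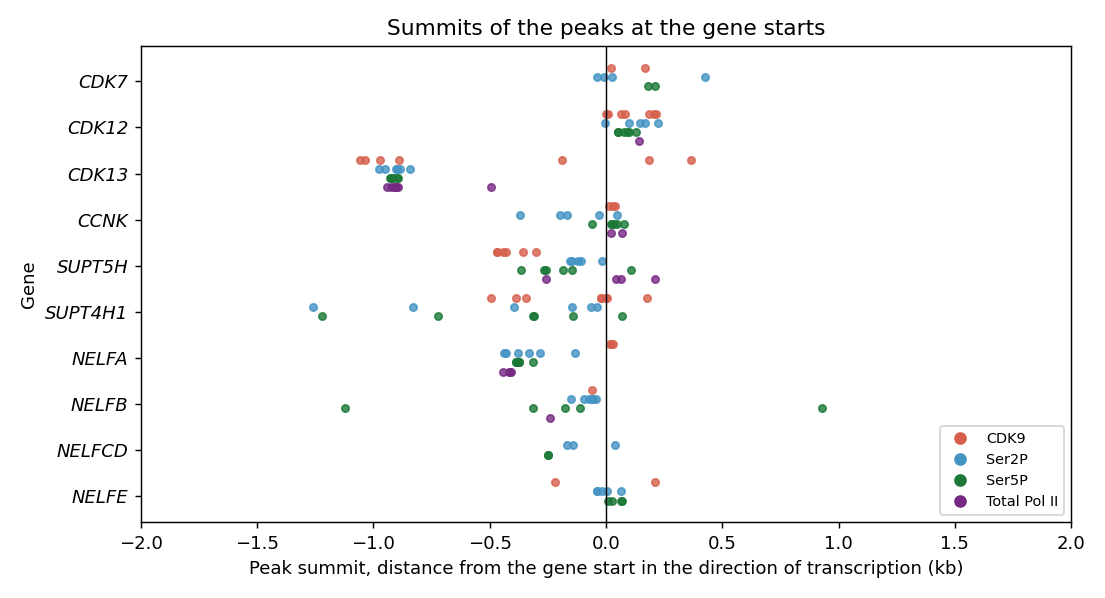
Distance of peak summits from the annotated gene start (horizontal axis, kb in the direction of transcription) for the 10 genes, 1 point per list with a peak at the start, coloured by target. CDK13 summits of Ser5P cluster 0.894 to 0.931 kb upstream, those of NELFA 0.314 to 0.389 kb upstream; 1 NELFB summit at -6.05 kb lies outside the axis.

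The DSIF genes behaved differently from each other. SUPT4H1, on the minus strand of chromosome 17 (hg38 58345178 to 58352201), spans 7.02 kb and lies wholly inside TSPOAP1-AS1, a noncoding gene of the opposite strand. RNF43, on the same strand, ends 0.299 kb before its start. ChIP-seq carries no strand, so signal here cannot be assigned to SUPT4H1 alone. Ser2P covered 53.0% and 59.5% of the SUPT4H1 window in DMSO, 3.17% and 21% at 2 h, and 25.7% and 22.8% at 4 h. Every treated list was lower than both DMSO lists, with means of 56.2% ± 4.5, 12.1% ± 13 and 24.3% ± 2.1 (SD, n = 2 each; exact permutation test, two-sided, p = 0.333 at each time). Without 2 h replicate 1, the short list, the remaining 2 h list at 21% was still below both DMSO lists.

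The Ser2P difference at SUPT4H1 was one of peak width and of separate peaks, and all 6 lists had a peak. The window held 4 and 4 peaks in DMSO, 1 and 2 at 2 h, and 4 and 3 at 4 h. Inside the gene, over 1 kb from its ends, each DMSO list had 2 peaks and each treated list 0. The best peak was 4.45 and 5.34 kb wide in DMSO, 0.349 and 1.22 kb at 2 h, and 1.06 and 0.717 kb at 4 h. In both DMSO lists this peak ran past the window before the start. In DMSO it stood in the best 1.62% and 6.47% of its list, and in the treated lists between 23.3% and 82.1%. The 2 kb before the start were fully covered in both DMSO lists (2.00 kb), against 0.349 and 0.852 kb at 2 h and 0.781 and 0.655 kb at 4 h. In the 2 kb after the gene end the difference was smaller, with 1.63 and 1.66 kb in DMSO, 0 and 1.10 kb at 2 h, and 1.46 and 1.52 kb at 4 h. With equal numbers of the best peaks from every list, treated minus DMSO cover was -41.4 percentage points at 2 h and -31.5 at 4 h.

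Ser5P at SUPT4H1 was lower as well and CDK9 was higher. Ser5P covered 77.4% and 65.7% in DMSO, 63.2% and 53.7% at 2 h, and 53.4% and 38.5% at 4 h. Neither time overlapped DMSO, yet counting only peaks with a summit inside the window turned the 2 h difference from -13.1 to 11.9 percentage points and took the 4 h difference from -25.6 to -0.587. CDK9 with ab239364 covered 10.9% and 17% in DMSO and 28.1% and 43.1% with the compound, and SUPT4H1 was the 1 gene of the 10 with a peak in all 4 of these lists (12.4% of all genes with a peak in them). With CST2316S in SUDHL5 the DMSO lists had no peak and the treated lists covered 14.6% and 21.9%, so the gene was gained. Those peaks lay at the gene end and not at the start. In KARPAS422 cover was 15.2% and 37.4% in DMSO and 44.2% and 22.2% with the compound, which overlapped, and the peaks were at the start. No Pol II list had a peak at SUPT4H1.

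SUPT5H, on chromosome 19 (hg38 39445582 to 39476670), was marked at its start by all targets. Ser5P covered 42.5% and 35.6% in DMSO, 50.0% and 45.1% at 2 h, and 20.2% and 42.1% at 4 h. The 2 h lists were both higher than DMSO, but with a window of 2.5 kb the difference turned from 8.51 to -0.960 percentage points. CDK9 summits lay 0.302 to 0.468 kb before the start in all 6 CDK9 lists with a peak. Those were 1 of 2 treated lists with each SUDHL5 antibody (30.2% with ab239364 and 13% with CST2316S, both replicate 2) and all 4 KARPAS422 lists. KARPAS422 cover was 9.99% and 33.1% in DMSO and 22.7% and 16.5% with the compound, which overlapped. Ser2P covered 11.8% and 1.72% in DMSO, 0% and 2.01% at 2 h, and 6.46% and 1.42% at 4 h. The DMSO lists thus differed from each other more than the treated lists differed from the lower of them. Pol II had a peak in 4 of 9 lists, 1 in DMSO, 1 at 2 h and 2 at 4 h.

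The NELF genes carried Ser2P in 23 of 24 pairs of gene and list, and CDK9 in 6 of 48, all with ab239364. The plot of Ser2P cover gives every gene and list.

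**Figure D3:**
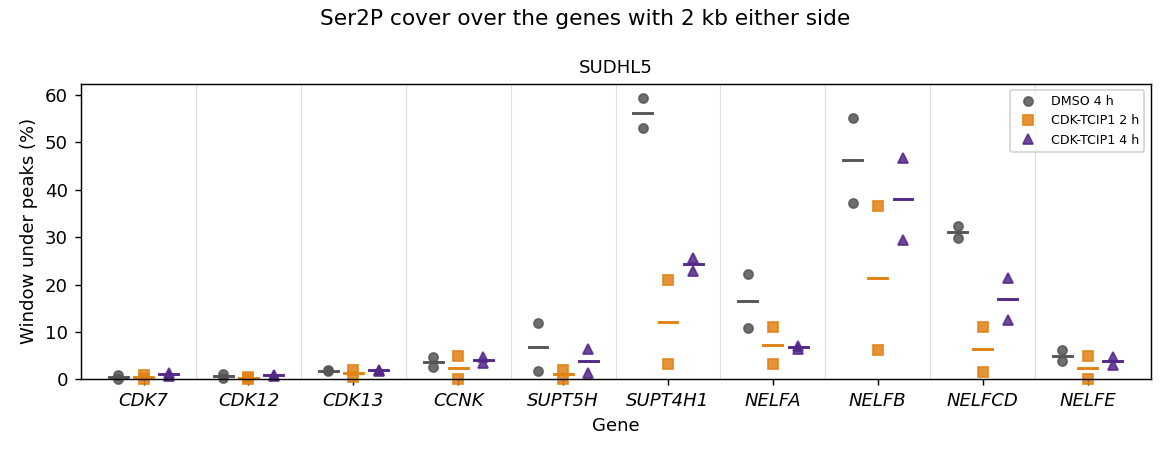
Percentage of the gene with 2 kb on each side under Ser2P peaks (vertical axis) for each gene in SUDHL5; each point is 1 list and each bar the mean of 2 lists. SUPT4H1 and NELFCD lie lower in every treated list than in both DMSO lists, and NELFB overlaps DMSO at 4 h. CDK7, CDK12 and CDK13 stay under 3%, in windows that grow with gene length.

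NELFCD, on chromosome 20 (hg38 58981256 to 58995113), encodes the subunit found as NELF-C or NELF-D. Ser2P covered 32.3% and 29.8% of its window in DMSO, 1.53% and 11.1% at 2 h, and 21.4% and 12.5% at 4 h. Every treated list was below both DMSO lists, and this held with equal numbers of the best peaks (-18.0 and -15.2 percentage points). The mark lay mostly between the midpoint and the end of the gene, where it covered 4.21 and 4.09 kb in DMSO, 0 and 1.69 kb at 2 h, and 2.65 and 1.77 kb at 4 h. CTSZ, on the opposite strand, ends 0.072 kb beyond the NELFCD end, so the 2 genes run towards each other here. NELFCD had no CDK9 peak in the 12 CDK9 lists and no Pol II peak in the 9 Pol II lists. Ser5P covered 17.8% and 2.22% in DMSO, 8.12% and 0% at 2 h, and 9.45% and 11.8% at 4 h, which overlapped at both times.

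NELFB, on chromosome 9 (hg38 137255327 to 137273542), showed opposite orders of the 2 marks at 2 h. Ser2P covered 55.2% and 37.3% in DMSO, 6.18% and 36.5% at 2 h, and 46.8% and 29.4% at 4 h. The 2 h lists were both lower, but replicate 2 by less than 1 percentage point, and the 4 h lists overlapped DMSO. Ser5P covered 44.9% and 10.6% in DMSO, 46.5% and 58.9% at 2 h, and 58.0% and 63.6% at 4 h, so both times lay above DMSO. The Ser5P peak at the start with the best q was 1.15 and 0.326 kb wide in DMSO, 2.04 and 3.96 kb at 2 h, and 5.20 and 8.36 kb at 4 h. These peaks did not share a summit, and in DMSO they lay 1.12 kb before and 0.929 kb after the start. CIMIP2A, on the opposite strand, starts 0.205 kb before the NELFB start, and the widest of these peaks had its summit 6.05 kb before the NELFB start. CDK9 was seen once at the ends of NELFB, in DMSO replicate 2 with ab239364 (15.6%), and Pol II once, in DMSO replicate 2 (10.0%).

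NELFA, on the minus strand of chromosome 4 (hg38 1982723 to 2008974), had CDK9 and polymerase at different places of the same start. CDK9 summits with ab239364 lay 0.032, 0.020 and 0.015 kb after the start. Ser5P summits lay 0.314 to 0.389 kb before it in 6 lists, and Pol II summits 0.407 to 0.443 kb before it in 4. LOC124900839, annotated on the same strand, ends 0.032 kb before the NELFA start, so the upstream summits fall inside it, and NSD2 ends 0.531 kb beyond the NELFA end. CDK9 cover was 0% and 15.3% in DMSO and 14.4% and 19.5% with the compound, which overlapped. Ser2P covered 22.2% and 10.8% in DMSO, 3.21% and 11.1% at 2 h, and 7.07% and 6.44% at 4 h. The 4 h lists were below DMSO and the 2 h lists were not. Between the midpoint and the end of the gene Ser2P covered 5.04 and 2.24 kb in DMSO, 0.345 and 1.77 kb at 2 h, and 1.29 and 0.581 kb at 4 h. Ser5P covered 41.6% and 15.1% in DMSO, 24.7% and 22.9% at 2 h, and 13.6% and 20.9% at 4 h, which overlapped at both times. Pol II covered 17.5% in DMSO replicate 2, 20.1% and 18.1% in replicates 2 and 3 at 2 h, 19.7% in replicate 2 at 4 h, and 0% in the other 5 lists.

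NELFE, on the minus strand of chromosome 6 (hg38 31952087 to 31958971), encodes the RNA-binding subunit. SKIC2 starts 0.204 kb before it on the opposite strand, and CFB ends 0.003 kb from its end. With ab239364 it was gained, at 0% in both DMSO lists and 7.77% and 19.2% in the treated lists. These peaks ranked at 74.2% and 86.2% of the way down their lists by q, and no such gain remained when only peaks with -log10 q of at least 5 were kept. Ser2P covered 6.17% and 3.80% in DMSO, 0% and 4.87% at 2 h, and 4.77% and 3.04% at 4 h. Ser5P was 10.7% and 12.6% in DMSO and was seen in replicate 2 alone at 2 h (13.3%) and at 4 h (16%). Both marks overlapped DMSO at both times, and no Pol II list had a peak.

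Read against all genes, the CDK9 gains at the 10 were near or under the background. With ab239364, 2 of the 9 genes with a peak were gained (CDK13 and NELFE), against 25.4% of all genes with a peak in that set, and 0 were lost (0.0335% of all genes). Cover was higher without overlap at 5 of the 9 (CDK12, CDK13, CCNK, SUPT4H1 and NELFE), against 53.6%. With CST2316S in SUDHL5, 1 of 3 was gained (SUPT4H1), against 48.3%, and it was the 1 gene with higher cover without overlap (62.1% of all genes; 0 were lower, 0.115%). In KARPAS422, 0 of 5 were gained (14.2%), 0 were lost (2.04%) and 0 had higher (32.6%) or lower (7.73%) cover without overlap, while 4 of 5 had a peak in every list (35.3%). The median difference in cover over the genes with a peak was 13.5 percentage points with ab239364 (9.97 over all genes), 6.52 with CST2316S in SUDHL5 (13.6) and 0.575 in KARPAS422 (5.70). With equal numbers of the best peaks, none of the 10 was gained with either SUDHL5 antibody. Under that setting the ab239364 differences turned from 18.6 to -5.36 at CDK12 and from 7.76 to -5.43 at CCNK. At SUPT4H1 the difference turned from 21.7 to -5.45. For ab239364 each list was cut to 915 peaks, the full length of DMSO replicate 1. The treated peaks ranked 1236 and 3129 at CDK12 and 1016 and 966 at CCNK, so the cut removed them. The DMSO peaks there ranked 682 and 380 and stayed. The signs at CDK12 and CCNK were thus set by the cut and cannot decide the part of list length. Shares of all genes are given for the main setting only, here and below. Counts with a list left out thus do not show whether the 10 moved apart from other genes. The ab239364 gains were 4 without treated replicate 1 or without DMSO replicate 2, and the genes with cover apart were 8 without treated replicate 1. With CST2316S in SUDHL5 the gains were 2 without either treated list, and in KARPAS422 1 to 3 genes stood apart in cover once any 1 list was left out.

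**Figure D4:**
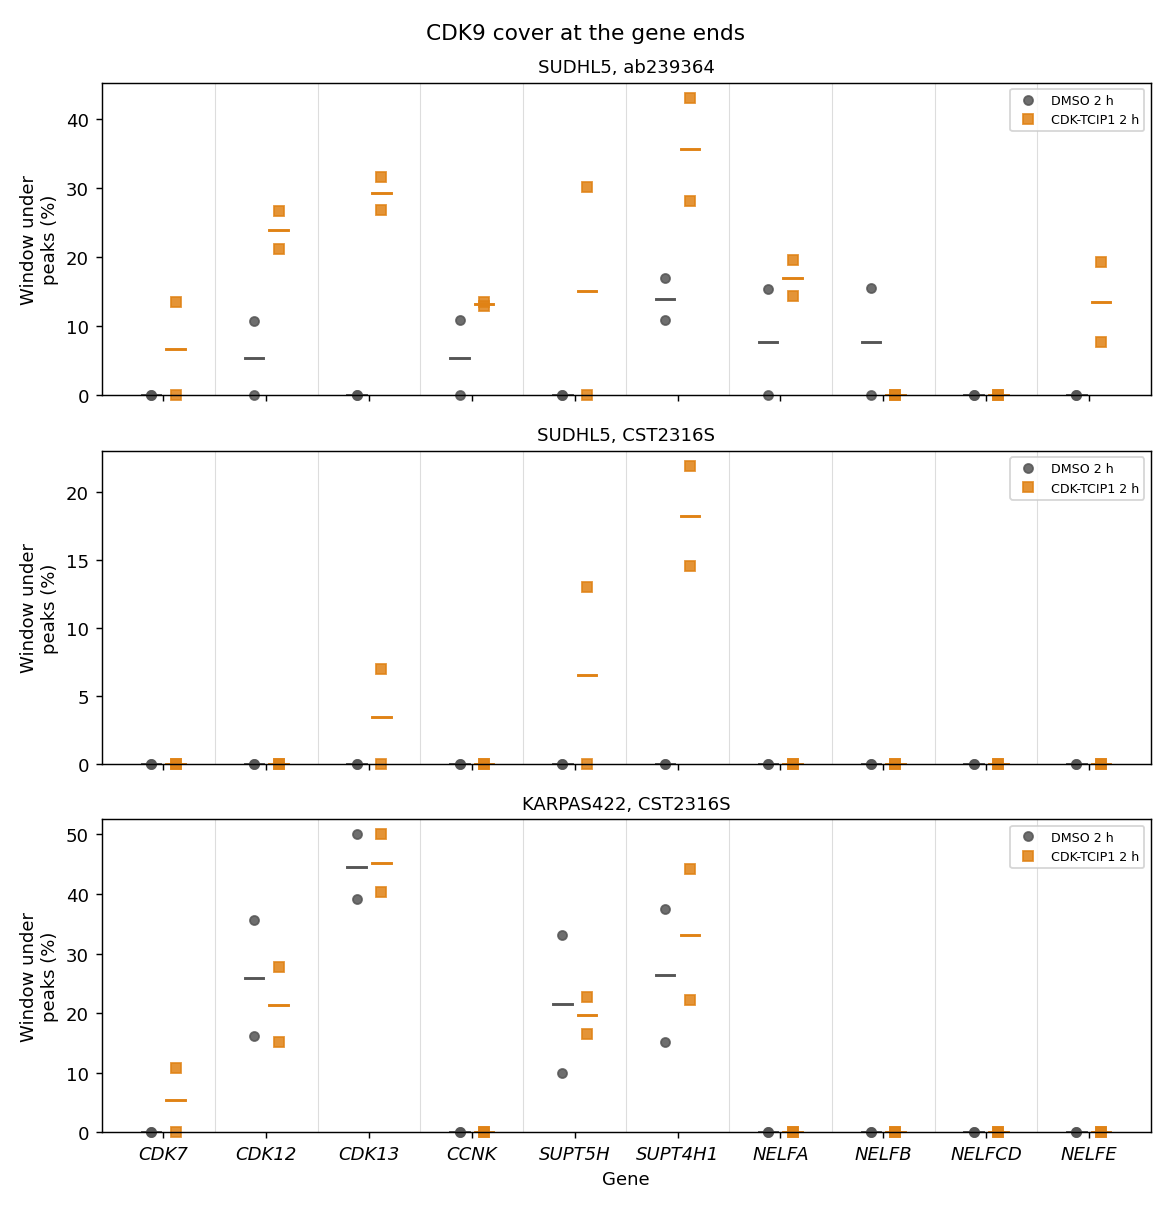
Percentage of the gene-end window under CDK9 peaks (vertical axis) for each gene, by line and antibody; each point is 1 list and each bar the mean of 2 lists. With ab239364 the treated lists lie above both DMSO lists at CDK12, CDK13, CCNK, SUPT4H1 and NELFE, and in KARPAS422 the groups overlap at all 5 genes with a peak.

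Over the 3 CDK9 sets together, the difference in mean cover was largest at SUPT4H1, from 13.4% to 29.0%, higher in 5 of 6 pairs of lists (exact permutation test, two-sided, p = 0.111, adjusted p = 0.538). It was followed by CDK13, from 14.9% to 26%, in 4 of 6 pairs (exact permutation test, p = 0.167, adjusted p = 0.538). The other 7 genes with a CDK9 peak had p from 0.333 to 1. The smallest p of the 36 relabellings was 0.0556, and 1159 of 7743 genes (15%) reached it but none of the 10 did. Under DMSO the lines differed in the order of lists: CDK12, CDK13, SUPT5H and SUPT4H1 had a CST2316S peak in both KARPAS422 DMSO lists and in neither SUDHL5 DMSO list. The same held for 52.8% of all genes with a peak in these 4 lists, and 0 of the 10 showed the reverse (0.785%). The KARPAS422 DMSO lists were longer, and the part of that was not tested. With this antibody, CDK12 alone of the 10 had a peak in both KARPAS422 DMSO lists and in no treated SUDHL5 list (22.6% of all genes), and 0 showed the reverse (8.71%).

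Ser2P had a peak in every list at 5 of the 10 genes for the 2 h comparison (35.2% of all genes) and at 9 for the 4 h comparison (54.6%). At 2 h, 3 of 10 genes were lower without overlap (SUPT4H1, NELFB and NELFCD), against 24.7% of all genes with a Ser2P peak, and 0 were higher (1.21%). At 4 h, 3 were lower (SUPT4H1, NELFA and NELFCD), against 18.4%, and 0 were higher, against 15.4%. No gene was gained at 2 h (0.251%) or 4 h (2.5%), and none was lost (3.68% and 2.2%). The median difference was -4.16 percentage points at 2 h and -1.96 at 4 h. All 10 genes were lower in the mean at 2 h, as were 8241 of all 10774 genes with a peak, and in 2 h replicate 2 alone CDK7, CDK13 and CCNK lay above their DMSO mean. Over all genes the median difference was -0.691 and -0.131. Median DMSO cover was unlike, at 5.88% over the 10 and 2.04% and 1.94% over all genes, so these differences in points start from unlike levels. Genes apart in either direction at 2 h were 5 without 2 h replicate 1, with CDK13 and CCNK higher, and 9 without 2 h replicate 2. At 4 h they were 8 without 4 h replicate 1, with CDK7 and CCNK higher. They were 8 without DMSO replicate 2, with CDK7 higher, and 6 without DMSO replicate 1, with CDK12, CDK13 and CCNK higher.

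Within the genes, the place of Ser2P differed. At CDK7 and CDK13 all Ser2P peaks lay in the 2 kb before the start or between the start and the midpoint, and at CDK12 this held in 4 of the 5 lists with a peak. NELFE likewise had no Ser2P after its midpoint in any list. At CCNK and SUPT5H Ser2P lay on both sides of the midpoint in some lists, and at SUPT4H1 most of it lay outside the gene, before the start and after the end. At NELFA, NELFB and NELFCD, DMSO lists had more covered bases after the midpoint than before it. At NELFB this was 6.29 against 3.06 kb in DMSO replicate 1 and 3.64 against 2.44 kb in DMSO replicate 2. The order was the other way in replicate 2 at 2 h, with 2.69 kb after the midpoint and 3.42 kb before it, and in replicate 2 at 4 h, with 2.11 and 2.42 kb.

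Ser5P had a peak in every list at 7 of the 10 genes for the 2 h comparison (58.4% of all genes) and at 8 for the 4 h comparison (54.3%). At 2 h, 3 of 10 genes were higher without overlap (CDK12, SUPT5H and NELFB), against 36.1%, and 1 was lower (SUPT4H1), against 4.91%. At 4 h, 2 were higher (CCNK and NELFB), against 18.3%, and 1 was lower (SUPT4H1), against 9.63%. None was gained (6.13% at 2 h and 3.17% at 4 h) or lost (0.582% and 0.952%). Pol II gave 0 gained genes of 6 with a peak at 2 h (0.785%) and 0 of 5 at 4 h (0% of all genes), and 0 lost (0.0231% and 0.157%). At 2 h 0 genes had Pol II cover higher (1.96%) or lower (0.0924%) without overlap, and 0 had a peak in every list (8.55%). At 4 h the same counts were 0 higher (0%), 0 lower (0.55%) and 0 in every list (2.62%). For Ser5P at 2 h, the 4 genes with cover apart in either direction became 8 without 2 h replicate 1 and 7 without DMSO replicate 1. At 4 h the 3 such genes became 5 to 7 when any 1 list was left out.

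**Figure D5:**
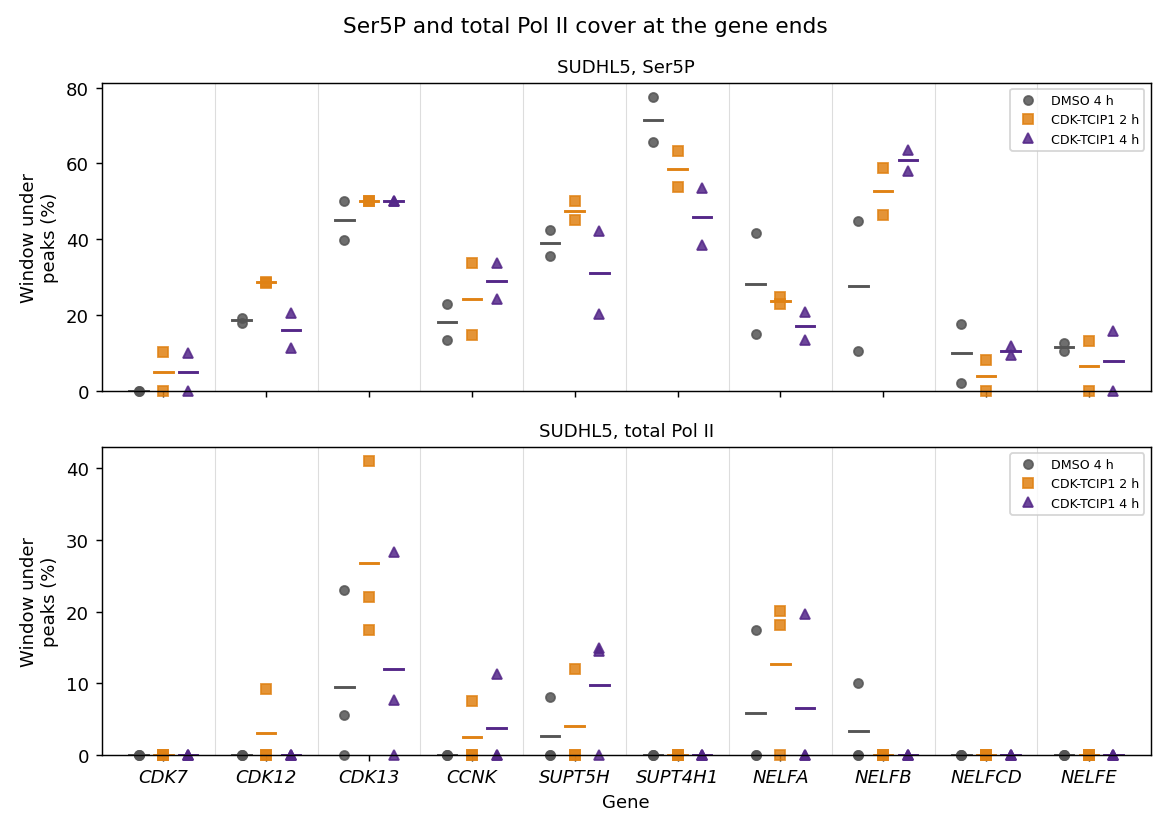
Percentage of the gene-end window under Ser5P peaks (top) and total Pol II peaks (bottom) for each gene in SUDHL5; each point is 1 list and each bar the group mean. Ser5P at NELFB lies above DMSO at both times and at SUPT4H1 below it, and Pol II at CDK13 overlaps between groups.

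Other genes of transcription elongation, 48 from a fixed list (TFIIH and Mediator kinase subunits, P-TEFb and its 7SK partners, CDK11 and its cyclins, PAF1C, SPT6 and FACT, Integrator and tail phosphatases), gave a comparison. With ab239364, 6 of 37 with a peak were gained (16.2%, against 25.4% of all genes): CDK19, CCNL2, IWS1, INTS4, INTS5 and INTS7. With CST2316S in SUDHL5, 11 of 15 were gained (73.3%, against 48.3% of all genes). They were CDK19, HEXIM1, HEXIM2, CCNL1, IWS1, SUPT16H, TCEA1, INTS6, INTS7, INTS13 and CTDSP2. HEXIM1 and HEXIM2 encode inhibitors of P-TEFb. In KARPAS422, 4 of 33 were gained (HEXIM1, LEO1, IWS1 and INTS14), which is 12.1% against 14.2% of all genes. IWS1, a partner of SPT6, was gained in all 3 CDK9 sets. It was singled out from the 48 for this, and the share of all genes gained in all 3 sets is not given.

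For Ser2P at 4 h, 19 of 44 genes of that list were higher without overlap (43.2%, against 15.4% of all genes), whereas 0 of the 10 were higher. In that list 3 were lower (6.82%, against 18.4%). The 6 gained (13.6%, against 2.5%) were MNAT1, LEO1, SKIC8, IWS1, POLR2M and INTS7. The median difference at 4 h was 0.405 percentage points over that list and -1.96 over the 10, from median DMSO cover of 1.35% and 5.88%. At 2 h, 1 of 43 was gained (IWS1, 2.33% against 0.251%), 2 were higher (4.65% against 1.21%) and 4 lower (9.3% against 24.7%). For Ser5P, 17 of 44 were higher at 2 h (38.6% against 36.1%) and 14 of 43 at 4 h (32.6% against 18.3%). CCNL2 and SSRP1 were lower at 2 h (4.55% against 4.91%) and CCNL2 at 4 h (2.33% against 9.63%), named after their values were seen. INTS7 gained Ser5P at 2 h (2.27% against 6.13%) and INTS2 gained Pol II at 2 h (4.17% against 0.785%). No gene of the list was lost in any of the 9 comparisons. The difference between that list and the 10 genes was not tested.

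The genes whose cover over the 33 lists ran most alike were different for each of the 10. CDK7 ran with CMSS1 (Pearson r = 0.967), CDK12 with NOL11 (0.926), CDK13 with FMC1-LUC7L2 (0.950) and CCNK with PEMT (0.931). SUPT5H ran with VIPAS39 (0.920) and SUPT4H1 with PEA15 (0.938). NELFA ran with RNPS1 (0.871), NELFB with PEAK3 (0.955), NELFCD with TMEM52 (0.949) and NELFE with MUL1 (0.896). These are the highest of all protein-coding genes over 10 kb away, over lists that share targets and differ in length, and are given as a description with no test.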

How the data were processed

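The labels describe 43 ChIP-seq samples. Peak lists were used for 33, and the 10 input libraries have none of their own. The submitters' processing notes name Bowtie2, MACS2, SAMtools, Picard, deepTools, bedtools, Trim Galore and FastQC, with the builds hg38 and dm6, but their versions and the control of each call are not given in the sources. Each deposited peak has the authors' fold, a ratio over its own background not scaled between lists, and 2 significance values of the authors, -log10 of its p-value and of its q-value, the latter at least 1.301. There was 1 list per sample. Read totals are not in these lists, so depth is unknown and list length is the one total. Where the names of the lists and the labels differ on the time of CDK9 DMSO samples, the labels (2 h) were followed.

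From 286536 peaks, 25 on other contigs were left out. Genes, strands and promoters came from RefSeq tables of GRCh38, the build of hg38. Presence and cover were computed with Python 3.11.15, pandas 2.3.3 and NumPy 2.4.6, figures with matplotlib 3.10.9, and the steps were tested on simulated data. Tests were exact two-sided permutation tests over lists. For the 3 CDK9 sets, labels were permuted by line, with both antibodies of SUDHL5 moved together, with Benjamini-Hochberg adjustment over 7743 genes. The replicates are not said to be separate cultures, so p-values measure only the spread between these samples. No lists held identical values.

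Replicate numbers were checked by the correlation of deviations from the group mean over genes. For Pol II at 2 h all 3 pairs were above 0.1 (0.364, 0.334 and 0.199). The numbers were therefore taken to pair those lists, and the blocked value is printed beside the result. In each Pol II group replicate 1 was also the shortest list and replicate 2 the longest. The part of list length in these correlations was not tested. The labels do not say what a number marks.

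All 10 genes are named. Other elongation genes are named where gained or lost, or where few were higher or lower without overlap. The most alike gene is the one with the highest Pearson correlation over the 33 lists, for genes with a peak in 3 to 30 of them. Neighbours are named where they share a window. Some planned checks of the lines are not reported here. The genes and lists were chosen with earlier results of these data known. Alternatives were -log10 q of at least 5, windows of 2.5 kb (Ser2P 5 kb), summits, gene-end windows for Ser2P, replicate blocks, equal numbers of top peaks and leaving out each list.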

Additional observations from a re-analysis of the deposited data

How the results depend on the processing

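Counts of genes gained or lost were repeated with a stricter q, wider windows, summits, equal top peaks and each list left out, and for Ser2P with gene-end windows. Counts of genes with cover apart (higher or lower without overlap) were repeated with the stricter q, equal top peaks, the replicate block and each list left out. Leaving out lists for cover, equal top peaks for cover, the crossed pairing and the differences of single genes were chosen after seeing the data. With -log10 q of at least 5, ab239364 gave 0 gained genes (2 before) and 3 with cover apart (5 before). With equal numbers of top peaks, ab239364 gave 0 gained and 0 with cover apart, CST2316S in SUDHL5 gave 0 gained and 0 with cover apart (1 and 1 before), and Ser2P at 4 h gave 1 gained (0 before) and 5 with cover apart (3 before). Equal top peaks turned the ab239364 difference to -5.36 at CDK12, -5.43 at CCNK and -5.45 at SUPT4H1. That cut kept 915 peaks a list and removed the treated peaks at CDK12 and CCNK, so it cannot decide the part of list length. The 2.5 kb window turned Ser5P at 2 h to -0.960 at SUPT5H, and summits turned it to 11.9 at SUPT4H1. The cause of the other changes was not tested.

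With the replicate block, Ser2P at 4 h gave 8 genes with cover apart (3 before) and Pol II at 2 h gave 1 (CDK13, 0 before), and it moved no other count of cover by over 1.5 times. Ser2P pairs at 2 h correlated at -0.277, and crossed pairing gave 7 genes (3 before). With 2 pairs a number is not shown to pair lists.

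Leaving out 1 list moved the gained counts to between 2 and 4 for ab239364 (4 without treated replicate 1 or DMSO replicate 2), to between 1 and 2 for CST2316S in SUDHL5 (2 without either treated list), and to between 0 and 1 for KARPAS422, Ser2P at 4 h, Ser5P at 2 h and Ser5P at 4 h. Lost counts ran from 0 to 1 for ab239364, Ser5P at 2 h and Ser5P at 4 h, and from 0 to 4 for Ser2P at 2 h (4 without treated replicate 2). Genes with cover apart ran from 5 to 8 for ab239364, 1 to 2 for CST2316S in SUDHL5, 1 to 3 for KARPAS422, 4 to 9 for Ser2P at 2 h, 4 to 8 for Ser2P at 4 h, 5 to 8 for Ser5P at 2 h, 5 to 7 for Ser5P at 4 h, and 0 to 1 for Pol II at 2 h and at 4 h. Fewer lists make it easier for groups to stand apart. Of the values of single genes, 124 stayed within the spread between lists under an alternative, 29 moved beyond it and 5 changed sign. Depth is unknown, so an absent peak is not shown to be an absent protein.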
